A study of Drosophila melanogaster with 3 samples.

Results

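Aminoacyl-tRNA synthetase genes were taken as all protein-coding genes on the main chromosome arms whose symbol is a 3-letter amino acid code followed by RS, with or without the ending -m. The rule found 32 genes of 13945. Of these, 17 have no ending and are called cytosolic here, and 15 carry the ending -m and are called mitochondrial. These names follow the symbol alone, and whether a gene without the ending also serves mitochondria was not examined. Binding was measured by chromatin immunoprecipitation and sequencing (ChIP-seq) of Hr4, a nuclear receptor, in Drosophila melanogaster collected whole as white prepupae, at the onset of metamorphosis. Both sexes were pooled, and the flies came from a transgenic line with green fluorescent protein (GFP) fused to the C-terminus of Hr4, and an antibody against GFP was used. The labels give their age as 48 days, an unusual value for this stage that could not be checked. All 3 biological replicates form 1 group, so no conditions were compared, and the labels do not say whether the line also carries untagged Hr4. Signal from whole animals cannot be assigned to a tissue.

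Each synthetase joins an amino acid to its matching transfer RNA (tRNA), and ribosomes then use the charged tRNA to build protein. Cytosolic enzymes serve the ribosomes of the cytosol, while mitochondrial enzymes are encoded in the nucleus, imported and used by the ribosomes of the mitochondrion. Hr4 belongs to the cascade of transcription factors that the steroid hormone ecdysone sets off at metamorphosis.

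A gene was called bound when the summit of a reproducible Hr4-GFP peak, its point of highest signal, lay within 1 kb of any of its transcription start sites. Cytosolic genes were bound in 5 of 17 cases, a share of 29.4%, and they were AlaRS, ArgRS, AspRS, IleRS and SerRS. Among mitochondrial genes ArgRS-m and LeuRS-m were bound, 2 of 15 or 13.3%. Without replicate 1 or without replicate 2, asking that peaks be found in the other replicates, that count was 1 of 15 (6.67%), and LeuRS-m was the gene lost. The cytosolic count was 4 of 17 (23.5%) without replicate 2 or without replicate 3, and ArgRS was the gene lost. All protein-coding genes gave 22.1%, 18.8% and 18.7% without replicates 1, 2 and 3. With all reproducible peaks, both kinds together gave 7 of 32, or 21.9%. That was close to the 22.7% (3164) of all protein-coding genes bound by the same rule. As a family the synthetases were thus bound about as often as genes in general. The difference between cytosolic and mitochondrial genes rests on few genes and was not tested.

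Depth behind these calls is unknown, since the lists carry no read counts. The reproducible list holds 8693 peaks, of which 8687 lie on the arms, and each replicate has a relaxed list of 30000 entries that mixes peaks with background. Of the 8687 summits, replicate 1 had a summit within 250 bp for 91.7%, replicate 2 for 99.1% and replicate 3 for 99.5%. On the X chromosome replicate 1 had one for 82.5% and held 3262 entries, against 5753 and 6069 in replicates 2 and 3.

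The promoter sequences of 3 bound genes and the summit sequence of the fourth show where the signal peaked relative to the gene. They are read from the Release 6 genome (dm6), 5′ to 3′ on the strand of the gene. For ArgRS (chrX:15844146-15844395, minus strand), IleRS (chr3L:22288415-22288664, plus strand) and ArgRS-m (chr3R:7886795-7887044, plus strand), the 250 bases that end just before the start site are given. In those 3 the capitals mark every match, on either strand (CTCTC is GAGAG on the other), to TATCGATA, the core of the DNA replication-related element, and to GAGAG, the letters recognised by GAGA factor. For LeuRS-m (chr3L:4824976-4825076, plus strand), the summit base with 50 bases to either side is given, and the capitals mark the central 11.
ArgRS: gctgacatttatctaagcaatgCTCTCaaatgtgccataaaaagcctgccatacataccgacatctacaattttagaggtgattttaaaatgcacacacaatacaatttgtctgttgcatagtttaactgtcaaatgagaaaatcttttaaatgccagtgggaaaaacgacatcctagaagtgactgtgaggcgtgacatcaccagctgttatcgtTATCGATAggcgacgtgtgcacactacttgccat
IleRS: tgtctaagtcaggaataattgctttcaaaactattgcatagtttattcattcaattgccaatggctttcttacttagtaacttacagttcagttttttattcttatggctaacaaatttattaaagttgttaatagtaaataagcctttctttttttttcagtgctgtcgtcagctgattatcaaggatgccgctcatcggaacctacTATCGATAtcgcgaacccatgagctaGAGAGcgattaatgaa
ArgRS-m: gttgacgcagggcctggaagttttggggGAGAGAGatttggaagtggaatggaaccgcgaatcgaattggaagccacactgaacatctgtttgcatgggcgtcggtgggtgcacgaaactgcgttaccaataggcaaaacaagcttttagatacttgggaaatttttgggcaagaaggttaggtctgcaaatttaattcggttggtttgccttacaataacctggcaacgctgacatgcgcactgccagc
LeuRS-m: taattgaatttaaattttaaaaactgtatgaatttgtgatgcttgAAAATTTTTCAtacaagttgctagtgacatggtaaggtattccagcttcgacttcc
The summit was base 92 of the ArgRS sequence, base 102 of the IleRS sequence, base 154 of the ArgRS-m sequence and base 51 of the LeuRS-m sequence. In none of the first 3 did a capitalised motif coincide with the summit: the TATCGATA match lay 125 bp from the summit at ArgRS and 107 bp at IleRS. The GAGAG matches lay 65 bp from it at ArgRS, 133 bp at IleRS, and 119 and 121 bp at ArgRS-m.

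SerRS, which charges serine tRNA, carried the strongest summit of the cytosolic genes. SerRS (FBgn0031497) lies on the minus strand of 2L from 3035493 to 3037403, and its peak covered 3037225 to 3037583. The summit at 3037379 lay 24 bp inside the gene, in the promoter (within 250 bp of a start site), with a signal value of 817.7 and rank 362 of 8693. The signal value is the authors', on the scale of its own list. In replicates 1, 2 and 3 the summit stood at the 99.6, 97.4 and 98.4 percentiles of the relaxed lists, high in every replicate. CG17260 starts on the other strand 8 bp from SerRS, and the summit lay 32 bp from a start site of that gene.

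IleRS, the isoleucyl enzyme (FBgn0027086, 3L 22288665 to 22292810, plus strand), had the next strongest summit of the cytosolic genes. The peak at 22288340 to 22288646 had its summit 149 bp upstream of the single start site, with a signal value of 518.8 and rank 904. Percentiles were 97.4, 96.2 and 96.8 in replicates 1, 2 and 3, the narrowest spread of the 5 genes whose summit was found in all 3 replicates. Hem, a gene of the actin-regulating WAVE complex, starts divergently 470 bp away, and the same summit lay 321 bp from it.

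AlaRS, the alanyl enzyme (FBgn0027094, 2L 8378262 to 8381764, minus strand), had the weakest of the 7 summits. Its peak at 8381622 to 8382045 reached a signal value of 170.1, rank 4534, with the summit 70 bp upstream of the start site. That summit lay within CG13392, a gene on the same strand, 889 bp from a start site of CG13392. The percentiles of 80.7, 86.6 and 83.5 in the 3 replicates were the lowest of those found in all replicates. Among the stronger 50% of peaks AlaRS was no longer bound, which left 4 of 17 cytosolic and 2 of 15 mitochondrial genes, against 14.9% of all genes.

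Both arginyl enzymes were bound. ArgRS (FBgn0027093, X 15841769 to 15844145, minus strand) had a peak at 15844229 to 15844420 with its summit 159 bp upstream of the start site, a signal value of 283.4 and rank 2415. In replicates 2 and 3 it stood at the 88.0 and 89.1 percentiles, but replicate 1 held no entry near it, the nearest being 115362 bp away. ArgRS lies on X, where replicate 1 held fewer entries than the others, and the part this plays in the missing entry was not tested. ArgRS-m (FBgn0037526, 3R 7887045 to 7890150, plus strand) had a peak at 7886868 to 7887011 with its summit 97 bp upstream, a signal value of 342.8 and rank 1813. It was found in every replicate, at the 95.5, 91.8 and 91.8 percentiles. Each of these summits also lay near a divergent gene, CG8578 at 172 bp and CG17816 at 215 bp, and in both cases the synthetase start site was the nearer.

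LeuRS-m, the mitochondrial leucyl enzyme (FBgn0027085, 3L 4825853 to 4829038, plus strand), had the strongest summit of the family, and it lay farthest from the gene. The peak at 4824890 to 4825172 had a signal value of 877.1 and rank 300. Its summit was 827 bp upstream of LeuRS-m, in an intron of Dhc64C, which encodes the heavy chain of cytoplasmic dynein, and nearer to the start site of that gene at 661 bp. Replicates 1 and 2 ranked their entries there 300 and 295, both at the 99.0 percentile. In replicate 3 the nearest summit was 778 bp away. The one entry of that replicate within 1 kb of the LeuRS-m start site lay 49 bp upstream of that start site, at rank 24485. Few of the 300 strongest reproducible summits, a set that ends at LeuRS-m itself, had such a gap. Of them, 2 (0.667%) were not found in replicate 1, 0 in replicate 2 and 2 (0.667%) in replicate 3, LeuRS-m among the last.

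AspRS, the aspartyl enzyme (FBgn0002069, 2R 12877004 to 12883168, plus strand), was the one synthetase with more than 1 counted summit. The stronger, at 12880040 in the peak 12879828 to 12880251, had a signal value of 428.4 and rank 1243, and stood at the 97.8, 94.7 and 93.1 percentiles in replicates 1, 2 and 3. The weaker, at 12880245, had a signal value of 93.4 and rank 8227, with percentiles of 87.0, 88.7 and 71.0. These summits lay 244 and 39 bp upstream of an internal start site at 12880284, inside the gene as annotated from its outermost start site. Nmda1 starts there on the other strand and was nearer to both, at 190 and 15 bp. With the outermost start site alone, AspRS was not bound.

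**Figure D1:**
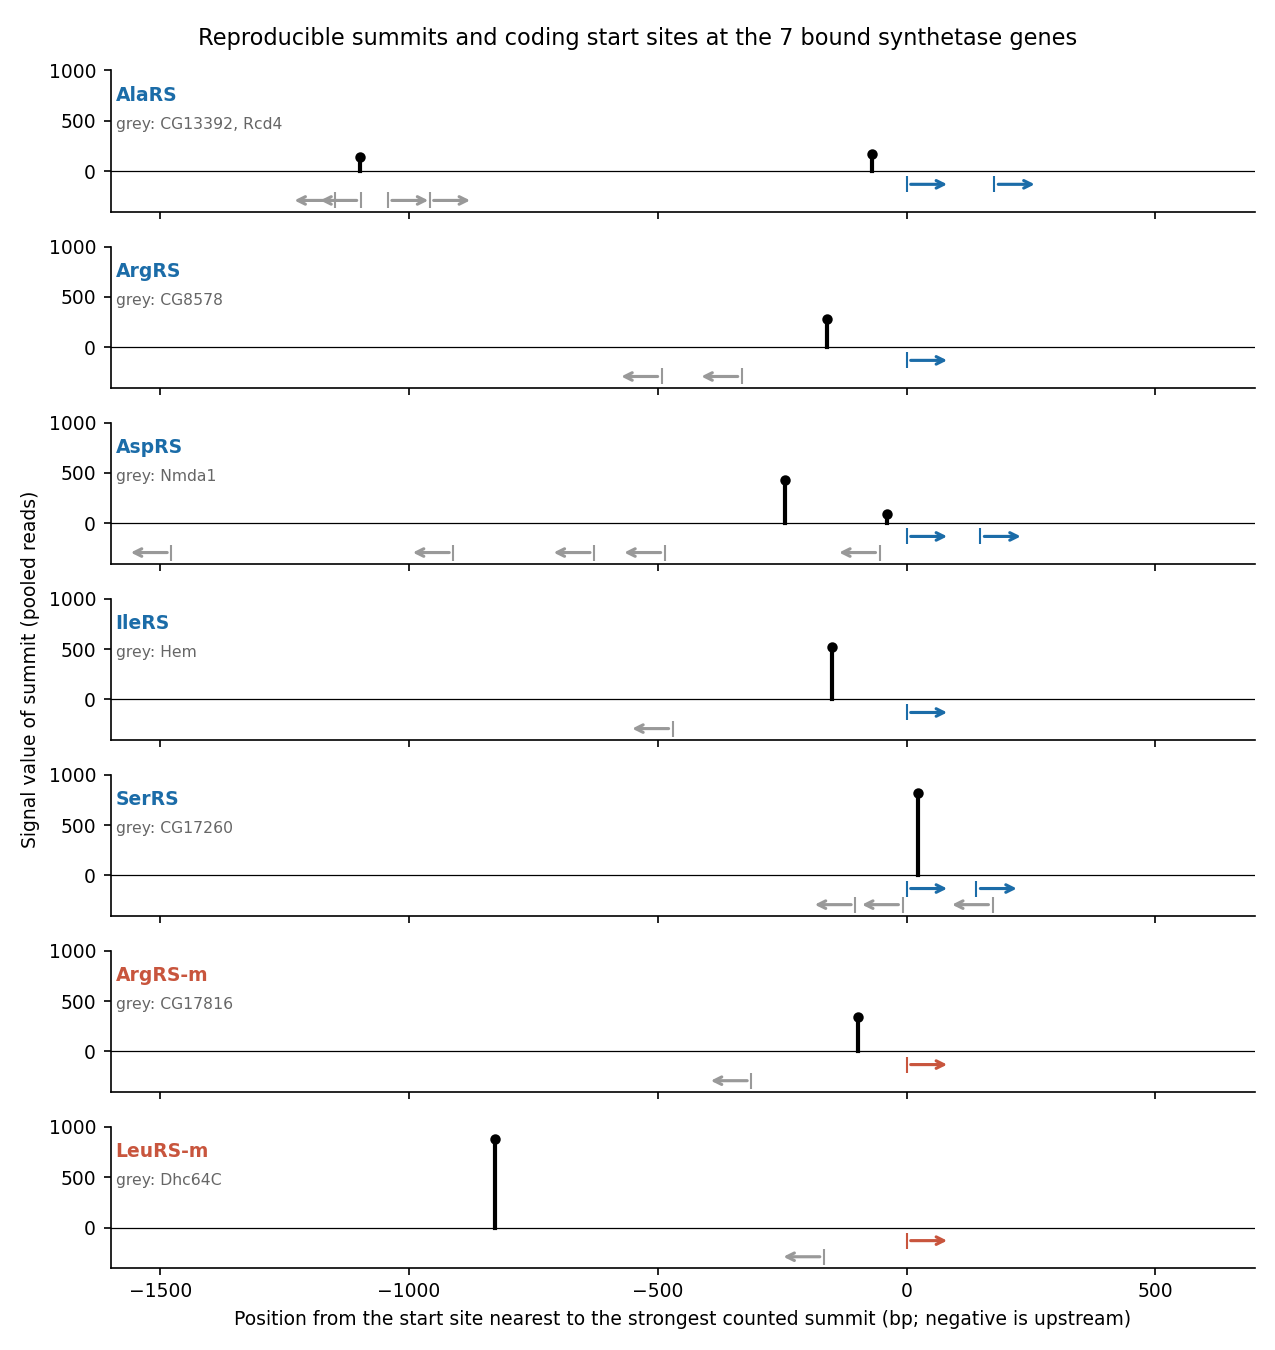
Reproducible summits around the 7 bound synthetase genes. Each panel plots the signal value of summits from pooled reads (black stems, vertical axis) against distance in bp from the start site nearest to the strongest counted summit; arrows below the line are start sites and their direction (blue cytosolic, red mitochondrial, grey other coding genes), and the stem at LeuRS-m stands at 827 bp upstream while the other 7 counted stems, 2 of them at AspRS, stand within 250 bp.

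**Figure D2:**
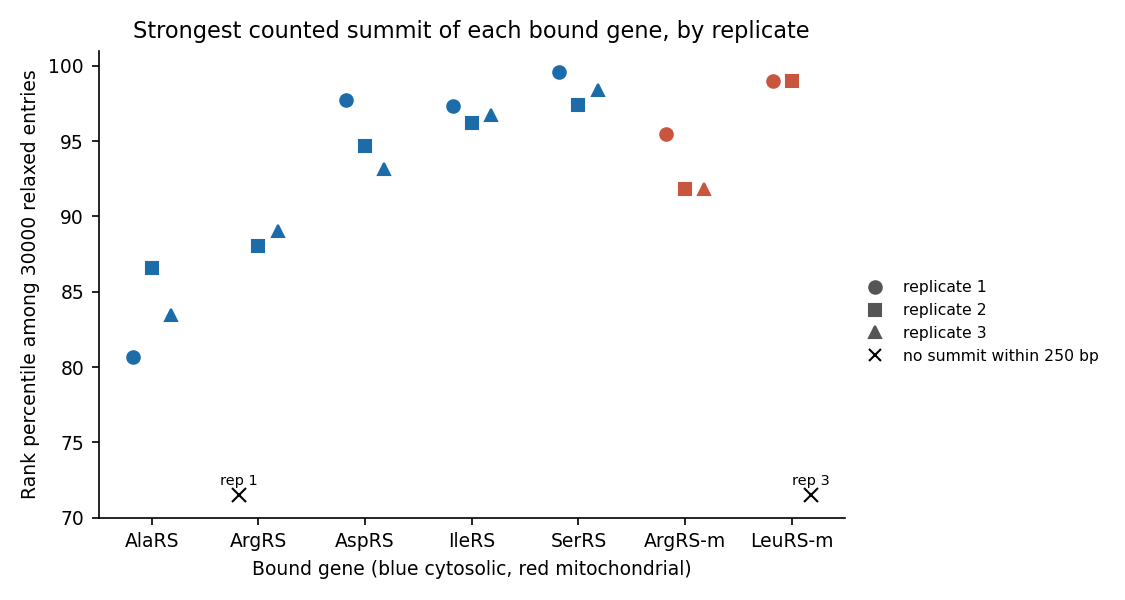
Rank percentile of the strongest counted summit of each bound gene in the relaxed list of each replicate (30000 entries; 100 is the strongest). Points are single replicates and crosses mark replicates with no summit within 250 bp, which are replicate 1 at ArgRS and replicate 3 at LeuRS-m.

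Summits of bound synthetase genes were described beside those of all 3164 bound genes. Their strongest counted summits had a median signal value of 428.4 (range 170.1 to 877.1, n = 7), against 249.0 over all bound genes, and a median rank of 1243 against 2889. In 6 of 7 genes the summit lay within 250 bp of the start site (85.7%, against 51.9%), and in 6 of 7 it lay upstream (85.7%, against 79.6%). The strongest summit was found in all 3 replicates for 5 of 7 genes, or 71.4%, against 80.8% over all bound genes. Every one of the 7 summits also lay within 1 kb of a start site of another protein-coding gene, which held for 49.9% (1578) of all bound genes. The synthetase was the gene with the nearest start site in 5 of 7 cases (71.4%, against 75.6%), the exceptions being AspRS and LeuRS-m. When a summit counted only for the nearest gene, 4 of 17 cytosolic and 1 of 15 mitochondrial genes were bound, beside 17.8% of all genes.

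The counts depended on how close a summit had to be. Within 250 bp and within 500 bp the same 5 cytosolic genes were bound, while ArgRS-m alone was bound among mitochondrial genes, 1 of 15 or 6.67%. All protein-coding genes gave 13.4% at 250 bp and 18.7% at 500 bp. Within 5 kb, 9 of 17 cytosolic genes (52.9%) and 3 of 15 mitochondrial genes (20%) had a summit, against 44.9% of all genes. Ribosomal protein genes, whose products use the charged tRNAs, are given beside them. At 1 kb, 33 of 85 cytosolic (38.8%) and 30 of 73 mitochondrial ribosomal protein genes (41.1%) were bound, and at 250 bp 28 (32.9%) and 22 (30.1%).

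**Figure D3:**
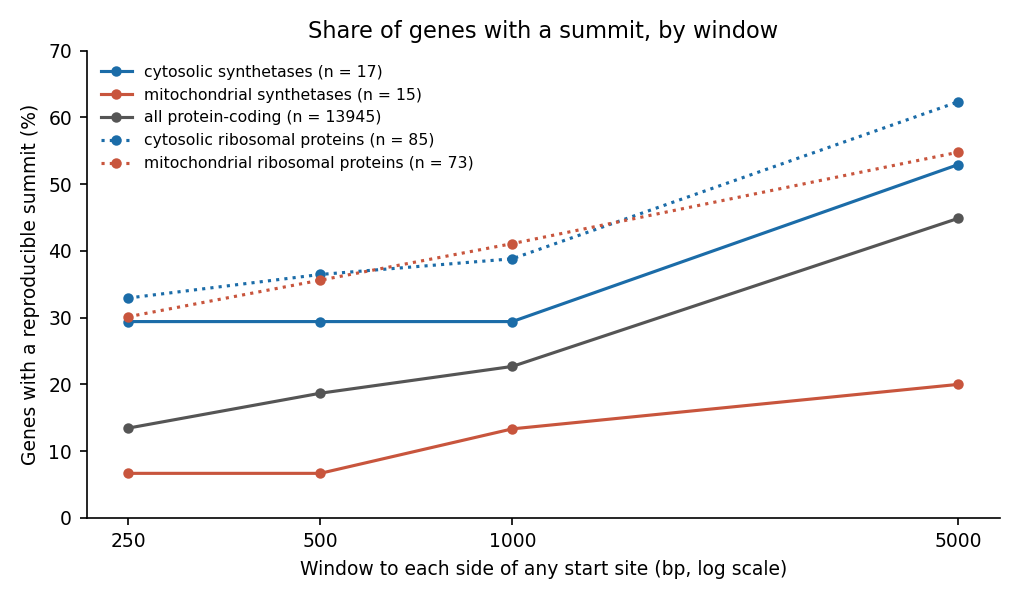
Share of genes (percent, vertical axis) with a reproducible summit within 250, 500, 1000 or 5000 bp of any start site (log axis), for synthetase genes (solid), ribosomal protein genes (dotted) and all protein-coding genes (grey). Cytosolic synthetases stay at 29.4% up to 1000 bp, and mitochondrial synthetases go from 6.67% at 250 bp to 20% at 5000 bp.

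The replicates taken alone gave the same cytosolic count and differed in the mitochondrial one. From the 8693 highest entries of each list, replicate 1 gave 5 of 17 cytosolic and 3 of 15 mitochondrial genes, with 21.3% of all genes bound. Replicate 2 gave 5 and 3, with 25.5% of all genes, and replicate 3 gave 5 and 1, with 24.6%. Genes differed as well as counts: replicate 1 had AsnRS in place of ArgRS and added AspRS-m, and replicate 2 added CysRS-m, while replicate 3 lacked LeuRS-m. From reproducible peaks found in all 3 replicates, 4 of 17 cytosolic genes and 1 of 15 mitochondrial genes were bound, beside 18.5% of all genes.

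The synthetase genes that were not bound had their nearest reproducible summit between 1133 and 75129 bp from a start site. GlyRS, the glycyl enzyme, lay just outside the limit: its nearest summit was 1133 bp upstream, with a signal value of 110.0 and rank 7088, whereas LeuRS-m lay just inside it at 827 bp. Other unbound genes with a summit within 5 kb were AsnRS at 1701 bp, HisRS at 2094 bp, MetRS at 4837 bp and CysRS-m at 3672 bp. At HisRS that summit lay inside the gene, and HisRS shares its start site with Bx, the gene of a LIM-domain protein. This made 4 of 12 unbound cytosolic and 1 of 13 unbound mitochondrial genes, together 5 of 25 (20%), against 28.7% of all unbound protein-coding genes.

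Distances beyond 5 kb were spread widely in both kinds. In cytosolic genes the nearest summit lay 5708 bp from CysRS, 6905 bp from GlnRS, 7702 bp from LeuRS and 8987 bp from TyrRS. TrpRS at 15836 bp, ThrRS at 15902 bp, LysRS at 18734 bp and ValRS at 24451 bp were farther away. Among mitochondrial genes AlaRS-m (6607 bp), GluRS-m (6862 bp), TrpRS-m (7330 bp), PheRS-m (7830 bp), AspRS-m (8569 bp) and ValRS-m (9792 bp) came before TyrRS-m at 10167 bp. IleRS-m (13397 bp), ProRS-m (15314 bp), MetRS-m (18109 bp), SerRS-m (20238 bp) and AsnRS-m (75129 bp) had none nearer. Some of these far summits were strong, such as the peak of rank 12 near AlaRS-m (signal value 2481) and that of rank 78 near TyrRS-m (1454). TyrRS and GluRS-m are neighbours on 3L and have the same nearest summit. The median over all 17 cytosolic genes was 4837 bp and over all 15 mitochondrial genes 8569 bp, with 6176 bp for all protein-coding genes.

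**Figure D4:**
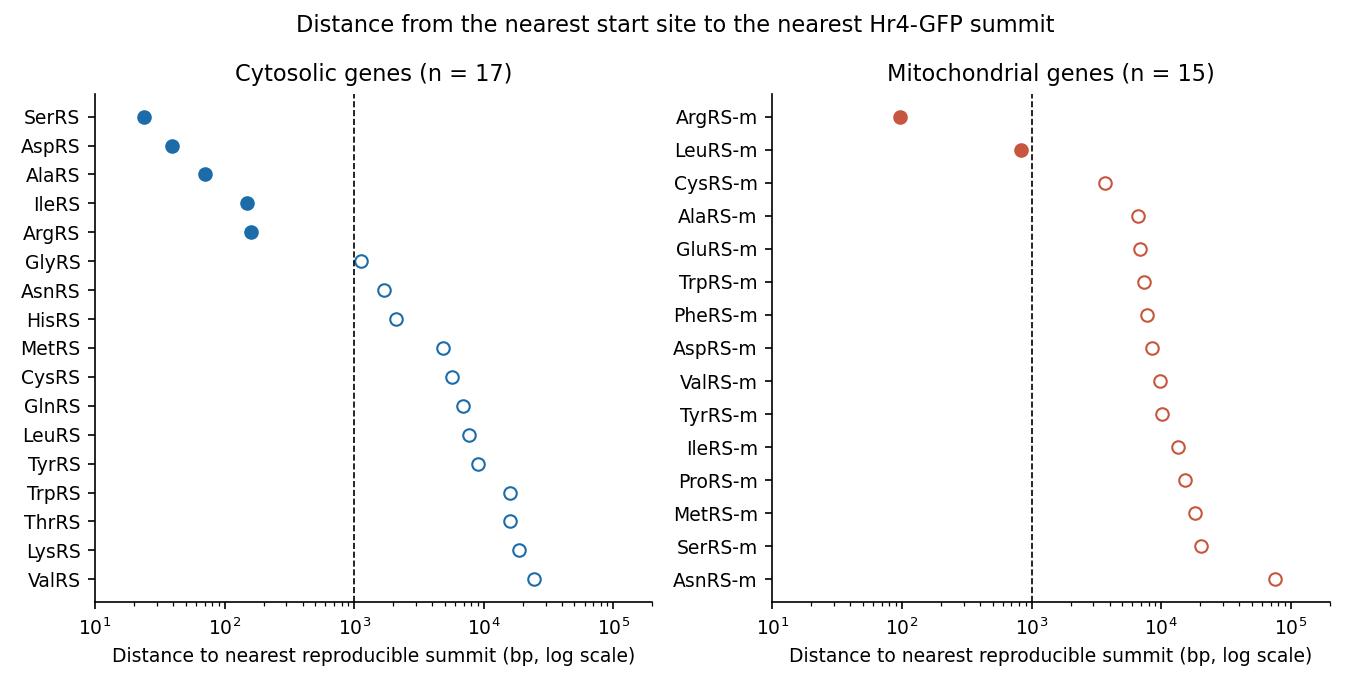
Distance in bp (log axis) from the nearest start site of each synthetase gene to the nearest reproducible summit, cytosolic genes on the left and mitochondrial genes on the right. Filled points are bound genes and the dashed line is the limit of 1 kb: points run from 24 bp at SerRS to 24451 bp at ValRS, and from 97 bp at ArgRS-m to 75129 bp at AsnRS-m.

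Below the reproducible threshold the unbound genes held few entries in the pooled relaxed list. GlyRS had 2 within 1 kb, the stronger 286 bp upstream with a signal value of 85.3 and rank 8954. The lowest reproducible peak has rank 8693 and a signal value of 88.0. HisRS also had 2, the stronger 469 bp downstream of its start site at rank 12784. No other unbound synthetase had an entry within 1 kb, so the count of genes with one was 2 of 25, or 8%, against 22.8% of all unbound protein-coding genes. With any pooled relaxed entry counted, 7 of 17 cytosolic and 2 of 15 mitochondrial genes had one, beside 40.3% of all genes.

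Cytosolic and mitochondrial genes also differed in their surroundings. All 17 cytosolic genes had a start site of another protein-coding gene within 1 kb of one of their own, against 7 of 15 mitochondrial genes (46.7%) and 42.9% of all genes (5985). A divergent neighbour is one read away from the synthetase on the other strand. The nearest neighbour was divergent and within 1 kb in 14 of 17 cytosolic genes (82.4%). The same held for 7 of 15 mitochondrial genes (46.7%) and 33.2% of all genes. Among genes with a neighbour within 1 kb, the bound share was 29.4% of cytosolic (5 of 17), 28.6% of mitochondrial (2 of 7) and 29.9% of all genes. Of the 8 mitochondrial genes without one, 0 were bound, against 17.3% of all such genes. Neighbouring start sites thus moved with the difference in bound share between cytosolic and mitochondrial genes, and their part in it was not tested. Number of start sites moved with it as well: 13 of 15 mitochondrial and 11 of 17 cytosolic genes had 1. Synthetase genes with 1 start site were bound in 4 of 24 cases (16.7%, all genes 16.1%) and those with 2 or more in 3 of 8 (37.5%, all genes 40.8%).

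**Figure D5:**
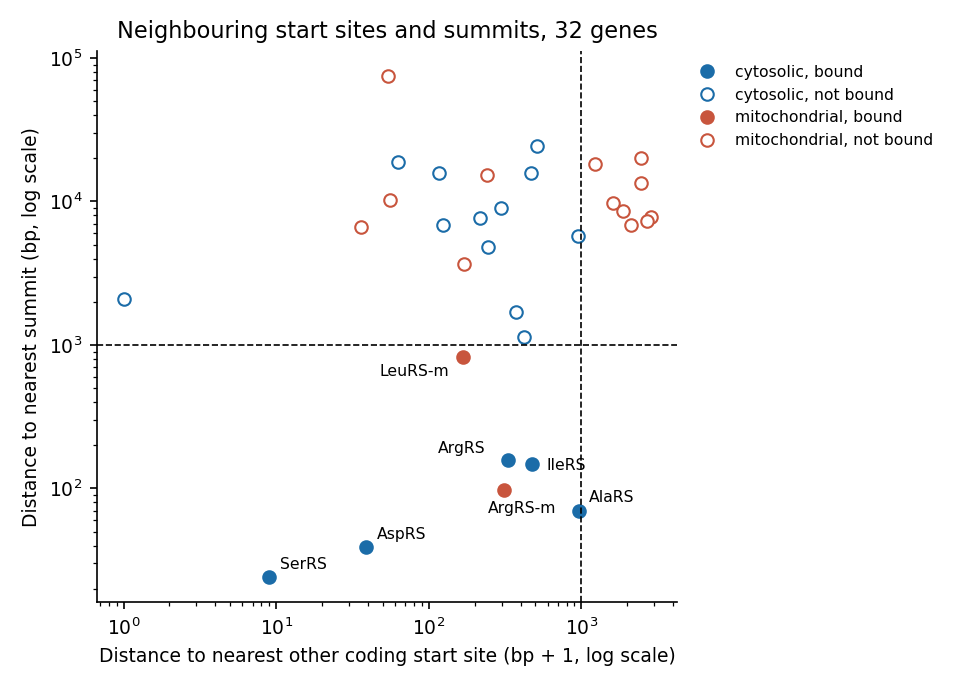
Distance to the nearest reproducible summit (bp, log axis) against distance to the nearest start site of another protein-coding gene (bp plus 1, log axis) for the 32 synthetase genes, with filled points for bound genes and dashed lines at 1 kb. All 7 bound genes lie in the lower left area, and the 8 genes to the right of the vertical line are mitochondrial and not bound.

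By amino acid, 12 pairs of cytosolic and mitochondrial genes could be set side by side. Both genes were bound for arginine, only the cytosolic gene for alanine, aspartate, isoleucine and serine, and only the mitochondrial gene for leucine. For asparagine, cysteine, methionine, tryptophan, tyrosine and valine neither was bound. Of the 5 cytosolic genes with no -m partner by the rule (GlnRS, GlyRS, HisRS, LysRS and ThrRS) 0 were bound, and 0 of the 3 mitochondrial genes with no cytosolic partner by the rule (GluRS-m, PheRS-m and ProRS-m). Synthetases fall into class I and class II by the fold of the catalytic domain. Class I genes were bound in 4 of 18 cases (22.2%) and class II genes in 3 of 14 (21.4%). Several cytosolic synthetases join in a multisynthetase complex in mammals, and 3 of the fly genes for those 7 were bound (ArgRS, AspRS and IleRS), beside 2 of the 10 other cytosolic genes (AlaRS and SerRS) and 22.7% of all genes. GluProRS, whose mammalian counterpart also belongs to that complex, falls outside the symbol rule and was bound too.

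Sequence at the summits was AT-rich, as at other peaks. GC content within 50 bp to either side of the 7 strongest counted summits had a median of 29.7% (mean 31.0%, SD 6.04, n = 7), ranging from 24.8% at SerRS to 41.6% at ArgRS-m. Over all 8687 summits the median was 30.7% (mean 31.7%, SD 7.59). All but that of LeuRS-m were promoter summits.

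Motifs were searched on both strands with exact letters. The 6 were TATCGATA, GAGAG, the E-box CACGTG, the nuclear receptor half-site AAGGTCA, its extended form TCAAGGTCA and TGATGNAA, the element bound by C/EBP and ATF4 heterodimers in mammals. TCAAGGTCA contains AAGGTCA, so each match to the longer is also one to the shorter. None of the 6 occurred within 50 bp of the strongest counted summit of the 7 genes, while TATCGATA occurred once within 50 bp of the weaker AspRS summit. Over all 8687 summits the shares were 0.668%, 8.38%, 0.553%, 0.679%, 0.0230% and 1.85% in the same order. Promoters were taken from 250 bp upstream to 50 bp downstream of the outermost start site of each gene. Other start sites were not searched, so the TATCGATA match by the internal start site of AspRS is not among these counts. TATCGATA occurred in 4 of 17 cytosolic promoters (23.5%), those of AlaRS, ArgRS, IleRS and TrpRS. It occurred in 1 of 15 mitochondrial promoters (PheRS-m) and in 9.37% of those of all protein-coding genes. At AlaRS it lay 51 bp from the summit. GAGAG occurred in 4 of 17 cytosolic and 2 of 15 mitochondrial promoters (all genes 29.8%). CACGTG occurred in those of GlnRS and LeuRS-m (all genes 4.24%) and TGATGNAA in that of CysRS (all genes 4.10%). AAGGTCA and TCAAGGTCA occurred in none of the 32 promoters, and in 2.11% and 0.122% of all promoters.

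Synthetase genes and a synthetase paralog that the symbol rule leaves out added 2 bound genes of 4, beside 22.7% of all protein-coding genes. GluProRS, whose product charges both glutamate and proline tRNAs, had a summit 232 bp upstream with a signal value of 460.6 and rank 1106, at the 97.6, 95.9 and 94.0 percentiles in replicates 1, 2 and 3. AP-1sigma, a subunit of a clathrin adaptor, was nearer at 28 bp. Slimp, a mitochondrial paralog of seryl-tRNA synthetase, had a summit 91 bp upstream with a signal value of 164.3 and rank 4701, at the 86.6, 82.0 and 84.0 percentiles. The subunit genes alpha-PheRS and beta-PheRS were not bound, with nearest summits at 1882 and 7333 bp.

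Of 18 genes on either side of tRNA charging 4 were bound, or 22.2%, against 22.7% of all protein-coding genes. The scaffold genes AIMP1, AIMP2 and AIMP3 of the multisynthetase complex gave 0 of 3. Of GatA, GatB, GatC and CG1750, the first 3 of which encode subunits of the amidotransferase that forms glutaminyl-tRNA in mitochondria, 1 of 4 was bound. That was GatA, with a summit 99 bp upstream, a signal value of 545.7 and rank 823. The summit was nearer, at 25 bp, to P5cr, which encodes the last enzyme of proline synthesis. Dtd, a deacylase that removes D-amino acids from tRNA, was not bound. Of the 4 elongation factor genes eEF1alpha1 was bound, with a summit 112 bp upstream of a start site, a signal value of 221.1 and rank 3316. In amino acid stress signalling 2 of 6 genes were bound. They were crc, which encodes the fly ATF4, with 4 counted summits of which the strongest had rank 4831 (signal value 159.9), and Thor, the translation inhibitor 4E-BP, with a summit 842 bp upstream at rank 3390 (216.7). Gcn2, PEK, eIF2alpha and PPP1R15 were not bound.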

How the data were processed

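ChIP-seq peak lists of 3 biological replicates were used. Per the text files deposited with them, each replicate's alignments and a control gave a relaxed list, the pooled alignments gave another, and irreproducible discovery rate (IDR) analysis of these lists gave the optimal list, called reproducible here. The signal value and the summit of each peak are the authors', as deposited, and signal values were compared within 1 list. Neither aligner, peak caller nor IDR threshold is given in the sources used here. Read depth is unknown. Sonication gave a size range of 200 to 800, per the labels, which name no unit.

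Summits (dm6) were located in the NCBI Release 6 sequence with Ensembl release 115 start sites, using Python 3.11.15 and NumPy 2.4.6. Lists in build dm3 were not used. Positions are 1-based. The rank percentile is the share of a list at or below the entry. The counting was tested on simulated data: 200 of 200 summits planted within 1 kb of a start site were recovered among 13945 genes. That checks the counting and not the detection of binding. Members and gene lists were chosen with earlier results of these data known, and the groupings by neighbour, class and complex after these results had been seen. All members are named by rule, as are bound genes of the other lists and neighbours nearer to a summit than the member. Other neighbours and unbound list genes were named after their values were seen. Shares were compared without a test, because 1 group and 1 pooled list give none.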

Additional observations from a re-analysis of the deposited data

How the results depend on the processing

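Counts of bound genes were recomputed under 15 alternatives each, and a count was taken as unchanged within 1.5 times. The share of all protein-coding genes bound moved as well, from 13.4% within 250 bp to 44.9% within 5 kb. It was 20.4% with the outermost start site alone and 24.0% with the peak interval, not the summit, within 1 kb. The cytosolic count of 5 stayed between 4 and 6, except within 5 kb, where it was 9. The count over both kinds, 7 of 32, stayed between 5 and 8 of 32, except within 5 kb, where it was 12. Adding the 4 genes outside the symbol rule changed the number of genes as well. It gave 6 of 20 cytosolic, 3 of 16 mitochondrial and 9 of 36 genes in all. The mitochondrial count of 2 moved to 1 under 7 alternatives: within 250 bp, within 500 bp, for peaks found in all 3 replicates, for the nearest gene only, in replicate 3 alone, and without replicate 1 or without replicate 2, and it was 2 or 3 under the other 8. In each of these 7 the gene lost was LeuRS-m. Leaving out each replicate in turn, by asking that peaks be found in the other ones, gave 4 to 5 cytosolic, 1 to 2 mitochondrial and 5 to 6 bound genes in all. The share of all protein-coding genes was then 22.1%, 18.8% and 18.7% without replicates 1, 2 and 3. The pooled list itself could not be remade without a replicate. The number of summits found in all 3 replicates was 5 of 7 under its 3 alternatives, and the median signal value ran from 342.8 to 428.4 under its 4. Median GC content was 28.4% in a window reaching 100 bp from the summit. No paired analysis was possible because the samples form 1 group. With depth unknown, a gene without a summit is not shown to lack Hr4.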

Other observations

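Some unbound synthetase genes had entries within 1 kb of a start site in single relaxed lists, which mix peaks with background. AspRS-m had one in replicate 1, 16 bp upstream at the 74.1 percentile, and AsnRS had one in replicate 1, 313 bp upstream at the 76.1 percentile. CysRS-m had one in replicate 2, 85 bp upstream at the 85.1 percentile, and one in replicate 1 at the 61.0 percentile. CysRS had entries in replicates 2 and 3, at the 61.0 and 49.3 percentiles. GlyRS had entries in the same 2 replicates at 58.2 and 56.7, and HisRS at 69.7 and 55.6. MetRS-m and ProRS-m had entries in replicate 1, at 49.2 and 58.8. None of these 8 genes had an entry in all 3 replicates. With bound genes included, 34.4%, 34.4% and 31.3% of the 32 synthetase genes had an entry in replicates 1, 2 and 3, against 38.4%, 47.4% and 45.2% of all protein-coding genes.

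By chromosome arm, synthetase genes were bound in 2 of 6 cases on 2L (all genes 23.3%), 1 of 8 on 2R (19.3%), 2 of 10 on 3L (23.8%), 1 of 5 on 3R (23.1%) and 1 of 3 on X (24.4%).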
